A study of Homo sapiens with 8 samples.

Results

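The TET demethylation pathway was examined in 8 genes on one-color expression arrays of the human colorectal cancer line HCT116. The genes were TET1, TET2 and TET3, the thymine DNA glycosylase gene TDG, the TET partners CXXC4 and OGT, and the isocitrate dehydrogenase genes IDH1 and IDH2. These are 8 of 20465 gene names in the array files, and every probe that was not a control and carried one of them was taken, which gave 15 of 50599 distinct probes. There were 3 probes for TET1, 4 for TET2, 2 each for TET3 and TDG, and 1 for each of the other genes.

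RNA came from 4 clones, each hybridized once without treatment and once following 72 h in 1 µM 5-aza-dC, so that 8 arrays covered 4 conditions with n = 2 clones each. The control clones CONT1 and CONT2 carried the plasmid pcDNA6.2-GW/EmGFP-miR-neg, and TET1-KD1 and TET1-KD2 carried TET1 knockdown vectors, which express artificial miRNAs against TET1 and were made in 2 designs. All clones, controls included, had been through transfection and G418 selection, and each was grown from 1 GFP-positive colony; TET1 knockdown had been checked by RT-qPCR. Differences between kinds of clone and differences between single colonies therefore rest on the same 2 clones per kind. Unless another fit is named, the limma p-values below use the spread between clones of a kind, pooled over the 4 conditions. Each clone enters that spread with and without treatment.

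Treatments were taken from the array titles, since a separate treatment field gives mock for every control array and 5-aza-dC for every knockdown array. UCHL1, a deubiquitinase gene that 5-aza-dC is known to reactivate in colorectal cancer lines, had log2 signals of 1.91 to 2.27 on the arrays titled untreated and 14.38 to 14.95 on those titled as treated, in every clone. The colorectal epithelial markers EPCAM, CDH1, KRT8, KRT18 and CDX2 were above background on all 8 arrays, whereas CDH17 was above background on none and VIL1 on 2. The treated arrays of CONT1 and CONT2 lay alone on a second slide, scanned 230 days after the first, so that slide and condition cannot be told apart in any comparison that uses them. On that slide the signals of 8 spike-in probes differed from those on the first slide by -1.004 to -0.038 on the log2 scale, and the 75th percentile of the array signals was 395.5 and 476.1, against 546.3 to 623.7 on the first slide. For untreated knockdown against untreated control clones, and treated against untreated knockdown clones, the means compared come from the first slide. Their p-values still draw on a spread estimated from all 8 arrays, those of the second slide included.

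TET proteins are dioxygenases that use iron and 2-oxoglutarate to oxidize 5-methylcytosine to 5-hydroxymethylcytosine, and further to 5-formylcytosine and 5-carboxylcytosine. TDG excises the formyl and carboxyl forms, and base excision repair then restores unmodified cytosine. 5-aza-dC acts on the other side of the balance: it is built into DNA and traps DNA methyltransferases, so that methylation is lost as cells divide.

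The probes are 60 bases long and their positions are those of the array design on hg19. All 3 TET1 probes are on the plus strand of chromosome 10, probe 1 at chr10:70332072-70332131, probe 2 at chr10:70453516-70453575 and probe 3 at chr10:70454164-70454223. The TET2 probes 1 to 4 are at chr4:106163842-106163901, chr4:106193920-106193979, chr4:106199618-106199677 and chr4:106200570-106200629, and probe 1 is the only one designed on another transcript record, NM_017628 in place of NM_001127208. The TET3 probes 1 and 2 are at chr2:74328560-74328619 and chr2:74329639-74329698. The sequences of 4 probes are given because the values below turn on them. TET1 probe 1 had the strongest signal of the target gene and holds an ATG, and the capitals mark the 36 bases from it to the end of the probe, which are 12 codons without a stop. TET2 probe 2 was the TET probe that passed the test in a comparison, TET3 probe 1 is one of the TET3 probes without detectable signal, and the IDH2 probe covers a genomic interval of 235 bases and so joins separate genomic segments.
TET1 probe 1: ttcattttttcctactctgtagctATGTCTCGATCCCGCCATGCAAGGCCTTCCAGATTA
TET2 probe 2: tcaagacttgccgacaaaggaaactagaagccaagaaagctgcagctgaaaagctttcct
TET3 probe 1: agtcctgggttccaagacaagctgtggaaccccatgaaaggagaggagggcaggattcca
IDH2: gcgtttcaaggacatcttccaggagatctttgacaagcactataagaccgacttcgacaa

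Signals are given as log2 of the processed intensity after each array was scaled to its 75th percentile, and a probe was tested when 1 condition or more had it well above background on its 2 arrays. On this rule 12 of the 15 probes, from 7 of the 8 genes, were tested among 27286 probes. TET2 probe 1 and both TET3 probes were not well above background on any array. A probe was called when the limma p-value adjusted over all tested probes was below 0.05. Between untreated knockdown and control clones 0 of the 12 member probes were called, where 0.0147% of all tested probes were, and 3 had an unadjusted limma p-value below 0.05. After 5-aza-dC 1 probe was called between the kinds of clone, TET2 probe 2, against 18.8% of all tested probes in either direction and 11.9% called higher. In the control clones 5-aza-dC was followed by 2 calls, OGT and IDH1, both lower, against 41.8% in either direction and 22.6% called lower. After treatment of the knockdown clones limma called 0 probes, against 11.8%, and 0 had an unadjusted limma p-value below 0.05. For the difference in response between knockdown and control clones limma called 0 member probes, against 5.58%, with 3 at an unadjusted p-value below 0.05. In every comparison the called share of the members was at or below that of all tested probes. The methods' t-test with the same adjustment called 0, 0, 2, 0 and 0 of the 12 probes in these comparisons, in the order given. The methods name it for knockdown against control cells, and its use for the responses to 5-aza-dC and their difference is an extension made here.

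**Figure D1:**
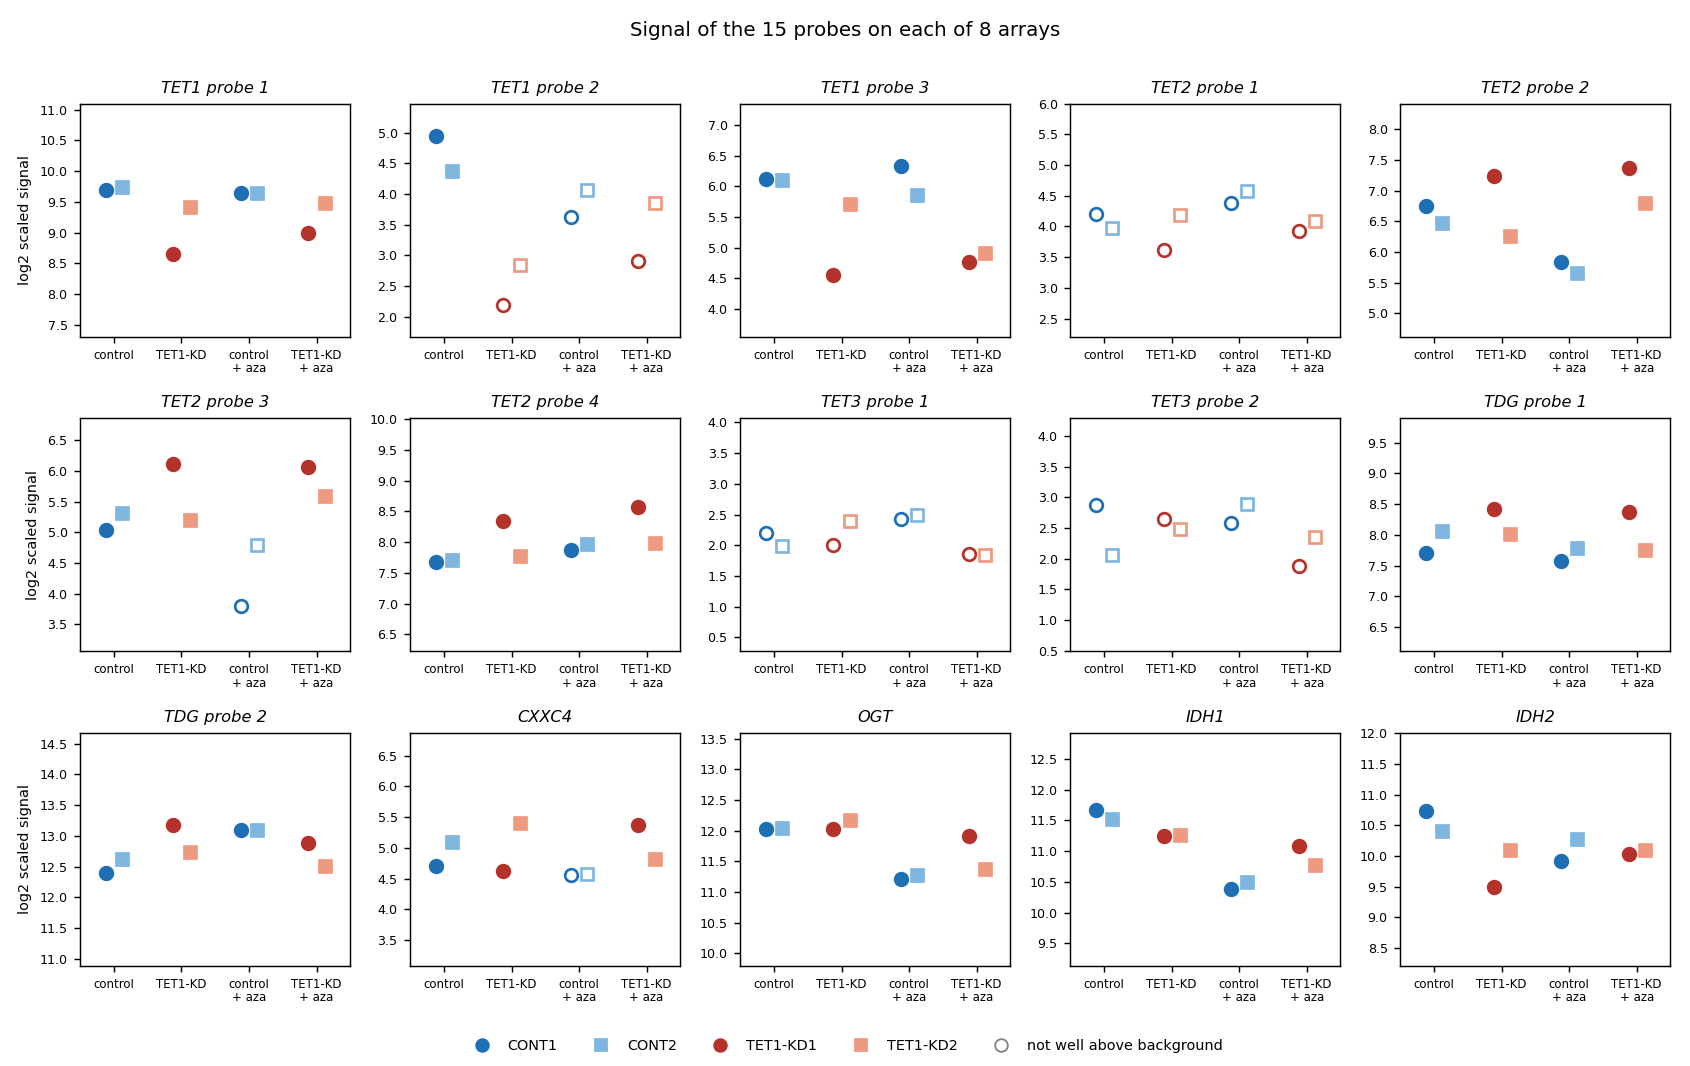
Log2 scaled signal (y axis, each panel spanning the same range of log2 units around its own centre) of the 15 probes on the 8 arrays, by condition (x axis, + aza for 1 µM 5-aza-dC); each point is 1 array, and open points were not well above background. The TET3 panels hold open points alone, and TET1 probe 1 lies between 8.65 and 9.48 in the knockdown clones and between 9.64 and 9.75 in the control clones.

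The knockdown target TET1 had lower signals in the untreated knockdown clones on all 3 of its probes, and TET1-KD1 was the lower of the knockdown clones at probes 1 and 3, where both were above background. At probe 1 the log2 signal was 9.70 in CONT1 and 9.75 in CONT2, against 8.65 in TET1-KD1 and 9.41 in TET1-KD2. The control clones thus lay within 0.05 of each other, while the knockdown clones were 47.6% and 80.6% of the control mean. The mean difference was -0.69 ± 0.29 on the log2 scale (SE, n = 2 clones per kind, 95% interval -1.39 to 0.01, limma adjusted p = 0.610), or 61.9% of control.

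At TET1 probe 3 the untreated signals were 6.12 and 6.10 in CONT1 and CONT2 and 4.56 and 5.71 in TET1-KD1 and TET1-KD2. The groups did not overlap, the clones TET1-KD1 and TET1-KD2 had 34.2% and 75.6% of the control mean, and the difference was -0.98 ± 0.37 (SE, 95% interval -1.88 to -0.07, limma adjusted p = 0.585). Probe 2 was the dimmest TET1 probe in the controls, at 4.95 in CONT1 and 4.38 in CONT2, and was not well above background in either knockdown clone (2.19 and 2.85). The measured difference there was -2.14 ± 0.41 (SE, limma adjusted p = 0.370), of which the background allows only the statement that the signal was at least 1.20-fold lower. The size of the difference depended on the clone, and at probe 1 it was -0.31 without TET1-KD1 and -1.07 without TET1-KD2. The arrays measure RNA in bulk, so that fewer cells with TET1 and less TET1 RNA per cell cannot be told apart.

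No TET1 probe was called in the untreated comparison, in which 4 of 27286 probes were called and the smallest difference among those was 2.71 on the log2 scale. With 2 clones against 2, an exact permutation test of a single value could not give a two-sided p-value below 0.333. The untreated groups did not overlap for 7 of the 12 member probes, and they did not overlap for 44.8% of all tested probes. The 7 were the 3 TET1 probes, TET2 probe 4, TDG probe 2, IDH1 and IDH2. The median log2 difference was 0.0864 over the member probes and 0.0191 over all tested probes.

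**Figure D2:**
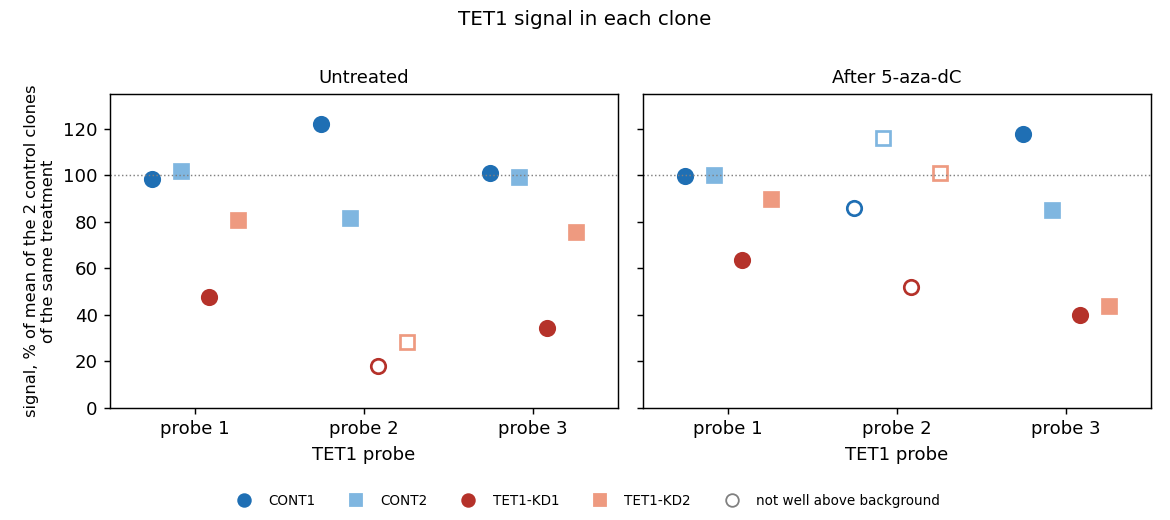
TET1 signal of each clone as a percentage of the mean of the control clones with the same treatment (y axis), for the 3 TET1 probes (x axis), untreated (left) and after 5-aza-dC (right); open points were not well above background. At probes 1 and 3 TET1-KD1 is the lowest clone, at 47.6% and 34.2% untreated and 63.5% and 39.8% treated, and TET1-KD2 at probe 1 is at 80.6% and 89.8%; the open points of probe 2 have no order.

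Under 5-aza-dC the TET1 order of the clones stayed at probe 1, at 9.64 in both control clones, 8.99 in TET1-KD1 and 9.48 in TET1-KD2. The knockdown clones were 63.5% and 89.8% of the treated control mean, a difference of -0.40 ± 0.29 (SE, 95% interval -1.10 to 0.29, limma adjusted p = 0.360). At probe 3 the treated signals were 6.33 and 5.86 in the control clones and 4.77 and 4.91 in the knockdown clones. These groups were more than 0.9 apart, and the knockdown mean was 41.8% of control, a difference of -1.26 ± 0.37 (SE, limma adjusted p = 0.0644). Over 20 alternative settings the difference ran from -1.56 to -0.60 and the adjusted p from 0.0200 to 0.232, and 6 of them gave a call. Probe 2 was not well above background on any treated array, so that no fold is given for it.

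5-aza-dC itself was not followed by a called change of TET1 in either kind of clone in the main setting. In the control clones the difference was -0.09 ± 0.29 at probe 1 and -0.01 ± 0.37 at probe 3 (SE, limma adjusted p = 0.834 and 0.98). The 95% intervals were -0.78 to 0.61 and -0.92 to 0.90, and so hold changes of either sign. Probe 2 was at -0.82 ± 0.41 in the control clones (SE, limma adjusted p = 0.152). It was not well above background after treatment, so that the bound is a fall of at least 1.12-fold. Quantile normalization gave a call for it (-1.34, limma adjusted p = 0.0456), but its difference ran from -1.34 to 0.02 over 20 alternative settings. Among the knockdown clones TET1-KD1 moved by 0.33 and TET1-KD2 by 0.07 at probe 1, and by 0.20 and -0.80 at probe 3, and the clones therefore went opposite ways at probe 3.

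TET2 was the TET gene with a called difference, and its probes did not move alike. At probe 2 the untreated signals were 6.74 and 6.47 for CONT1 and CONT2, against 7.23 and 6.26 for TET1-KD1 and TET1-KD2, so that the kinds of clone overlapped. After 5-aza-dC they were 5.83 and 5.66 in the control clones and 7.37 and 6.79 in the knockdown clones, which no longer overlapped. The treated knockdown clones were higher by 1.33 ± 0.36 (SE, 95% interval 0.47 to 2.20, limma adjusted p = 0.0483), or 252% of the treated controls.

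That call was close to the threshold and kept in 8 of 20 alternative settings. The adjusted p was 0.0660 to 0.184 when either treated or either untreated control array, or either treated knockdown array, was left out, and 0.225 with the methods' t-test. With normexp background correction the difference was 0.63, with a limma adjusted p of 0.0830. On the spike-in signals it was 1.1, with a limma adjusted p of 0.0867. The treated control arrays are those of the second slide, and slide and condition cannot be told apart here.

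TET2 probe 3 had untreated signals of 5.04, 5.31, 6.12 and 5.20 in CONT1, CONT2, TET1-KD1 and TET1-KD2. After treatment it was not well above background in CONT1 and CONT2 (3.80 and 4.79) and stood at 6.07 and 5.59 in TET1-KD1 and TET1-KD2. The knockdown clones were at least 2.36-fold higher by the bound that the background sets, with measured means of 4.29 and 5.83 and a limma adjusted p of 0.0548. With normexp background correction the difference was 0.24 on the log2 scale, below that bound, with an adjusted p of 0.317. TET2 probe 4 gave the strongest TET2 signal, at 7.67 and 7.71 for CONT1 and CONT2 and 8.34 and 7.78 for TET1-KD1 and TET1-KD2 untreated. With 5-aza-dC the same clones gave 7.87, 7.97, 8.57 and 7.98. TET1-KD1 was the highest clone in both treatments and the difference between kinds of clone was 0.37 ± 0.27 untreated and 0.36 ± 0.27 treated (SE, limma adjusted p = 0.684 and 0.382). The untreated 95% interval at probe 4 ran from -0.27 to 1.01.

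In response to 5-aza-dC, TET2 probe 2 was lower by 0.90 in CONT1 and 0.82 in CONT2 and higher by 0.14 in TET1-KD1 and 0.53 in TET1-KD2. The mean in the control clones was -0.86 ± 0.36 (SE, limma adjusted p = 0.0983). Over the 8 arrays, the signals of probe 2 correlated with those of probe 3 at r = 0.863 and with those of probe 4 at r = 0.621, as a description of arrays that share clones and slides. TET2 probe 1 stayed between 3.62 and 4.58 and was not well above background on any array.

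TET3 was not detected by either probe. Probe 1 lay between 1.84 and 2.5 and probe 2 between 1.88 and 2.90 over the 8 arrays, where the lowest signal of any probe well above background was 3.98 to 4.61, depending on the array. The knockdown and the treatment can thus not be compared for TET3, and the background gives an upper limit for the signals of these probes only. How well the probes bind TET3 RNA was not tested.

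TDG, which removes the oxidized bases made by the TET enzymes, was measured by 2 probes that gave different pictures. Probe 2, at chr12:104382442-104382501, read 12.39 and 12.63 for untreated CONT1 and CONT2, against 13.17 and 12.73 for TET1-KD1 and TET1-KD2. After 5-aza-dC it read 13.10 and 13.09 in the control clones and 12.88 and 12.51 in the knockdown clones, so that the order of the kinds of clone turned. The knockdown clones differed from control by 0.44 ± 0.22 untreated and by -0.40 ± 0.22 treated (SE, limma adjusted p = 0.631 and 0.248).

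In the control clones TDG probe 2 was higher after 5-aza-dC by 0.71 in CONT1 and 0.46 in CONT2, a mean of 0.58 ± 0.22 (SE, 95% interval 0.05 to 1.12, limma adjusted p = 0.0775), while TET1-KD1 and TET1-KD2 were lower by 0.29 and 0.22. The difference between these responses was -0.84 ± 0.31 (SE, limma adjusted p = 0.168). Probe 1, at chr12:104381013-104381072, lay between 7.58 and 8.42 on all arrays, and its kinds of clone overlapped in both treatments. Its difference was 0.33 ± 0.27 untreated (SE, limma adjusted p = 0.714). The 2 TDG probes correlated at r = 0.281 over the 8 arrays.

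CXXC4, also called IDAX, encodes a CXXC zinc finger protein that binds TET2 and lowers its protein level. Its probe, at chr4:105393436-105393495 on the minus strand, was spotted 10 times per array and was dim throughout. Untreated signals were 4.70 and 5.10 for CONT1 and CONT2 and 4.62 and 5.40 for TET1-KD1 and TET1-KD2. With treatment they were 5.37 and 4.82 for TET1-KD1 and TET1-KD2, and not well above background for CONT1 and CONT2 (4.55 and 4.58). The untreated difference was 0.11 ± 0.32 (SE, 95% interval -0.66 to 0.88, limma adjusted p = 0.931). With 5-aza-dC the signal was higher by 0.75 in TET1-KD1 and lower by 0.58 in TET1-KD2, a spread wider than any of the mean differences.

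OGT encodes the O-GlcNAc transferase that is recruited to chromatin by TET proteins. Its probe, at chrX:70795533-70795592, read 12.03 and 12.05 for untreated CONT1 and CONT2 and 12.03 and 12.18 for TET1-KD1 and TET1-KD2, a difference of 0.06 ± 0.21 (SE, 95% interval -0.44 to 0.56). After 5-aza-dC it read 11.21 and 11.28 in the control clones and 11.92 and 11.38 in the knockdown clones. OGT fell by 0.79 ± 0.21 in the control clones (SE, limma adjusted p = 0.0242), to 57.7% of the untreated signal.

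In the knockdown clones OGT was lower by 0.10 in TET1-KD1 and by 0.79 in TET1-KD2, against 0.82 in CONT1 and 0.77 in CONT2, so that TET1-KD1 stood apart from the other clones. The mean there was -0.45 ± 0.21 (SE, limma adjusted p = 0.222), and the difference in response between the kinds of clone was 0.35 ± 0.29 (SE, limma adjusted p = 0.512). The call in the control clones was lost when any 1 of the 4 control arrays was left out (adjusted p 0.0773 to 0.105), and when the arrays were put on the spike-in signals, where the difference was -0.61 with an adjusted p of 0.0748.

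IDH1 and IDH2 make the 2-oxoglutarate that TET enzymes consume, IDH1 in the cytosol and IDH2 in mitochondria. IDH1, measured at chr2:209101326-209101385 on the minus strand, read 11.67 and 11.53 for untreated CONT1 and CONT2, against 11.25 and 11.27 for TET1-KD1 and TET1-KD2. After 5-aza-dC it read 10.39 and 10.50 in the control clones and 11.09 and 10.77 in the knockdown clones. The treated control clones thus gave the lowest signals, and none of the 4 conditions overlapped with another.

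IDH1 fell by 1.16 ± 0.17 with 5-aza-dC in the control clones (SE, 95% interval -1.56 to -0.75, limma adjusted p = 0.00308), to 44.8% of untreated, by 1.28 in CONT1 and 1.03 in CONT2. The call held in all 21 alternative settings, with adjusted p-values of 0.00128 to 0.0452. None of these settings separates 5-aza-dC from the second slide, on which the treated control arrays lay alone. In the knockdown clones the differences were -0.16 in TET1-KD1 and -0.50 in TET1-KD2, with a mean of -0.33 ± 0.17 (SE, limma adjusted p = 0.262). The response of the knockdown clones was higher than that of the control clones by 0.83 ± 0.24 (SE, 95% interval 0.25 to 1.4, limma adjusted p = 0.0993), which did not pass the threshold. Between the kinds of clone IDH1 differed by -0.34 ± 0.17 untreated and by 0.49 ± 0.17 treated (SE, limma adjusted p = 0.630 and 0.0913).

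IDH2, on the minus strand between positions 90630472 and 90630706 of chromosome 15, read 10.73 and 10.41 for untreated CONT1 and CONT2, against 9.49 and 10.10 for TET1-KD1 and TET1-KD2. TET1-KD1 had 47.4% and TET1-KD2 72.1% of the control mean, the groups did not overlap, and the difference was -0.77 ± 0.26 (SE, 95% interval -1.39 to -0.16, limma adjusted p = 0.550). After 5-aza-dC the control clones read 9.92 and 10.28 and the knockdown clones 10.03 and 10.10, a difference of -0.04 ± 0.26 (SE, limma adjusted p = 0.931). The treated clones of both kinds thus lay within 0.36 of each other. IDH2 was lower by 0.81 in CONT1 and 0.13 in CONT2 after treatment, and higher by 0.54 in TET1-KD1 with no change to 2 decimals in TET1-KD2.

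**Figure D3:**
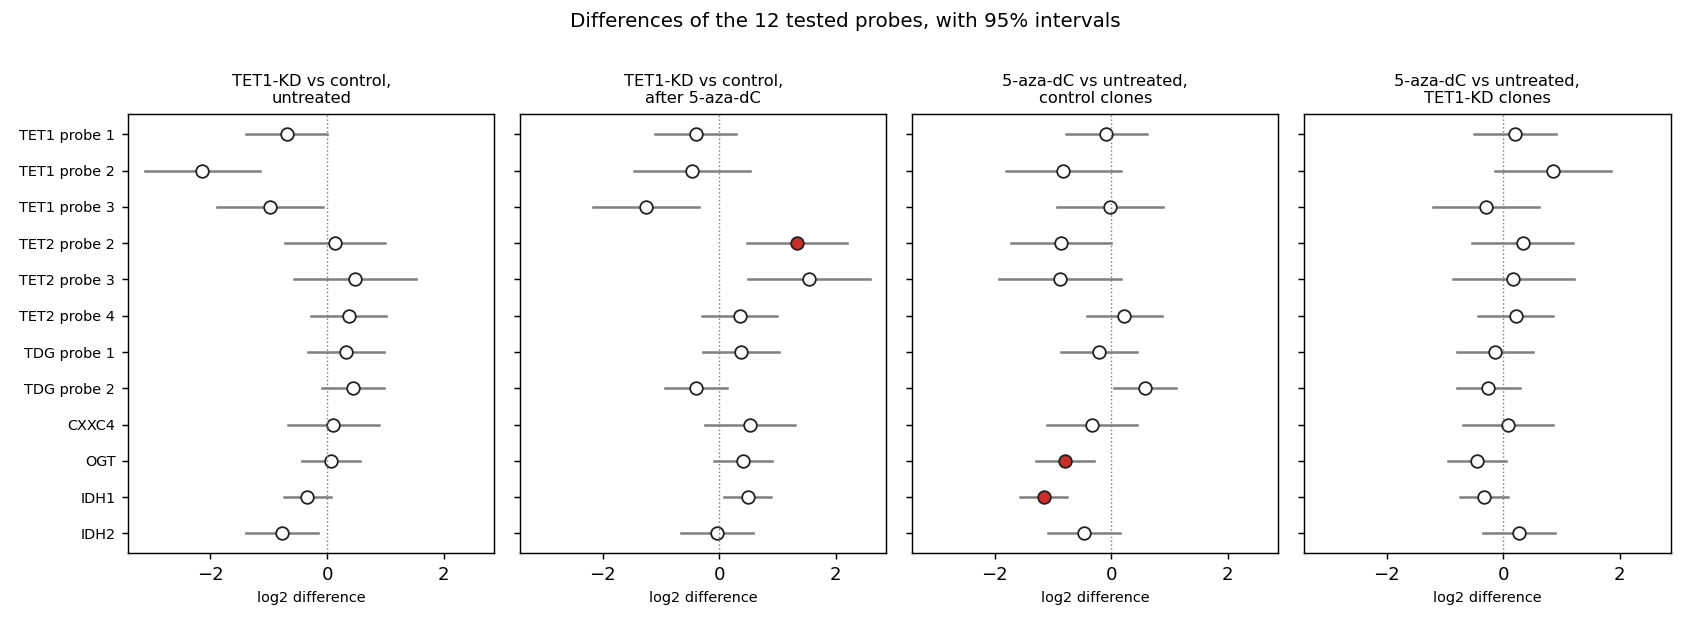
Log2 differences (x axis) of the 12 tested probes (y axis) in 4 comparisons, each point the difference of 2 means of 2 clones with its 95% limma interval; red points were called at an adjusted p below 0.05. The red points are TET2 probe 2 at 1.33 in the second panel and OGT at -0.79 and IDH1 at -1.16 in the third.

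The treated and untreated arrays of 1 clone come from the same source, so the response to 5-aza-dC was also fitted with the clone as a block. In the control clones 5 of the 12 probes were then called, against 50.4% of all tested probes. Beside IDH1 and OGT these were TET2 probe 2 (-0.86 ± 0.15, adjusted p = 0.0153), TET2 probe 3 (-0.88 ± 0.24, adjusted p = 0.0416) and TDG probe 2 (0.58 ± 0.13, adjusted p = 0.0280), all with SE and limma adjustment. TET2 probe 3 was below background in the treated control clones, where the bound set by background is a fall of at least 1.5-fold. That bound holds for the main processing only, since the difference ran from -1.38 to 0 on the log2 scale over 20 alternative settings. The blocked fit called 0 member probes for the knockdown clones, against 4026 of all 27286 tested probes. It also called 0 for the difference in response, where no setting called more than 1750 of all probes.

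The groups with and without 5-aza-dC did not overlap for 10 of the 12 member probes in the control clones, against 79.0% of all tested probes, and for 3 in the knockdown clones, against 55.0%. Of those 3, OGT and IDH1 were above background, while TET1 probe 2 was not on any array of the knockdown clones and its order there is not a measurement. The 10 in the control clones include TET1 probe 2, TET2 probe 3 and CXXC4, which were not well above background on the treated control arrays. Between the kinds of clone after treatment 9 did not overlap, against 63.4% of all tested probes. TET2 probe 3 and CXXC4 are among these and rest on the same dim signals. In the control clones the epithelial markers moved both ways: EPCAM (-0.89) and KRT8 (-0.75) were called lower and KRT18 (0.61) higher, while CDH1 and CDX2 were not called. The markers of other cell types moved as well: PTPRC, PECAM1 and COL1A1, 3 of the 4 listed, rose with 5-aza-dC, each at its brightest tested probe. PTPRC rose by 1.56 and COL1A1 by 0.99 on the log2 scale (limma adjusted p = 0.0145 and 0.0285), while PECAM1 was not well above background in the untreated control clones and was at least 2.63-fold higher after treatment, with measured means of 2.22 and 5.71 (limma adjusted p = 0.0167). The summed signal of the 4 was 380 to 404 untreated and 776 to 987 treated for the control clones, and 368 to 500 untreated and 612 to 798 treated for the knockdown clones. COL3A1 was not above background on any array. The other PTPRC probes were above background on 0, 3, 0 and 1 arrays, and the other PECAM1 probes on 0 and 1. The part of these markers, and of the second slide, in the results on the control clones was not tested.

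**Figure D4:**
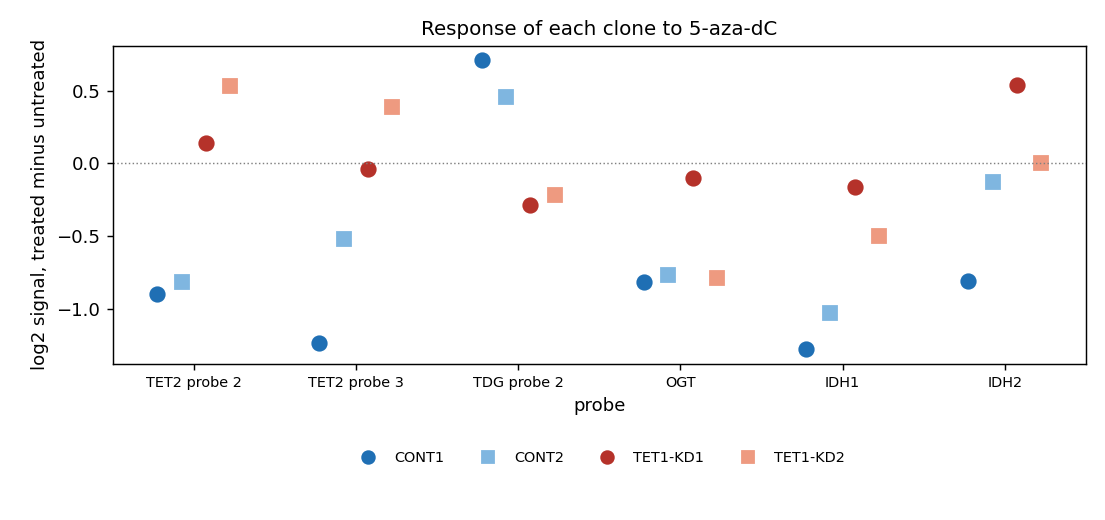
Treated minus untreated log2 signal (y axis) of each clone for 6 probes (x axis); each point is 1 clone, measured on 1 array per treatment. For IDH1 all clones lie below 0, from -1.28 in CONT1 to -0.16 in TET1-KD1, while for TDG probe 2 the control clones lie above 0 and the knockdown clones below.

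Genes around these members were read from 4 lists, with 1 probe per gene, the tested probe with the highest mean signal. Between untreated knockdown and control clones limma called 0 genes in all 4 lists, and 0 had an unadjusted limma p-value below 0.05. The median differences were -0.0102 for 14 genes of 2-oxoglutarate supply and removal, 0.02 for 11 tested TET regulators and partners, 0.00374 for 15 genes of base excision and -0.137 for 6 readers of oxidized methylcytosine, against 0.0191 for all tested probes. WT1, PRDM14, DPPA3 and EBF1, which recruit TET proteins or restrict them in other cell types, were not well above background on both arrays of any condition and were not tested.

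With 5-aza-dC in the control clones, 9 of the 14 genes of 2-oxoglutarate supply and removal were called, 3 higher and 6 lower. Of all tested probes 41.8% were called (19.2% higher and 22.6% lower), and the median was -0.298 for the list against -0.0803 for all probes. The list also holds enzymes that break 2-oxoglutarate down or act after it, so that its counts do not measure supply. IDH3A, the catalytic subunit of the mitochondrial NAD-dependent isocitrate dehydrogenase, fell by 2.61 ± 0.19 (SE, limma adjusted p = 0.000272). OGDH, which breaks 2-oxoglutarate down in the citric acid cycle, fell by 1.35 and the succinate dehydrogenase gene SDHD by 1.22 (limma adjusted p = 0.0019 and 0.00228). OGDH was above background on 1 of the 2 treated control arrays, so that the size of its fall is limited by background, and it ran from -1.73 to -0.33 over the alternatives, with the smallest size and no call (adjusted p = 0.0704) under normexp background correction.

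Of the same 14 genes 2 were called in the knockdown clones after 5-aza-dC, the fumarase gene FH, which fell by 0.59, and IDH3B, another subunit of the same dehydrogenase, which fell by 0.57 (limma adjusted p = 0.0471 and 0.0463), where 11.8% of all tested probes were called. Each of these calls was lost in 18 of 22 alternative settings, leaving out any 1 of the 8 arrays included, with adjusted p-values up to 0.213 and 0.19. With the arrays of the first slide only, FH and IDH3B were not called (limma adjusted p = 0.0784 and 0.0772). After treatment 7 of the 14 differed between the kinds of clone, 4 higher and 3 lower in the knockdown clones, against 18.8% of all tested probes (11.9% higher and 6.91% lower). IDH3A was higher by 1.95 and OGDH by 1.36 (limma adjusted p = 0.00257 and 0.00544), while SDHA and SDHB, also succinate dehydrogenase subunits, were lower by 0.87 and 0.86 (limma adjusted p = 0.00927 and 0.0115). Each of these calls was lost with the methods' t-test, where the adjusted p was 0.158, 0.14, 0.0932 and 0.134 in the same order. The SDHB call was lost without the treated array of CONT2 or of TET1-KD1 (adjusted p = 0.0521 and 0.0557). The OGDH difference rests on the same dim treated control arrays and ran from 0.35 to 1.46 over the alternatives. The difference in response passed the test for IDH3A and OGDH, 2 of the 14 genes against 5.58% of all tested probes.

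Of the 11 tested TET regulators and partners, 3 were called with 5-aza-dC in the control clones, a smaller share than the 41.8% of all tested probes. HCFC1, a protein cleaved by OGT, fell by 0.64, whereas MGEA5, which removes the sugar that OGT adds, rose by 0.60 and the ubiquitin ligase scaffold CUL4A rose by 0.51 (limma adjusted p = 0.0368, 0.0385 and 0.0308). The calls of HCFC1 and MGEA5 were each lost in 10 of 21 alternative settings and that of CUL4A in 6, each of them without any 1 of the 4 control arrays. On the spike-in signals HCFC1 was at -0.08 (adjusted p = 0.785), and with the clone as a block MGEA5 had an adjusted p of 0.058. For the knockdown clones limma called 0, with 3 at an unadjusted p below 0.05. After treatment the ligase adaptor DDB1 was lower by 0.51 in the knockdown clones (limma adjusted p = 0.0463), 1 of 11 against 18.8% of all tested probes. This call was lost in 15 of 20 settings, any 1 array left out included, and the difference was -0.26 with quantile normalization (adjusted p = 0.216).

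Of the 15 base excision genes, 5 were called with 5-aza-dC in the control clones, 1 higher and 4 lower, a smaller share than the 41.8% of all tested probes, with a median of -0.323 against -0.0803. FEN1, a flap endonuclease, fell by 1.49, APEX1, which cuts the DNA at abasic sites, by 1.11 and XRCC1, a repair scaffold, by 0.84 (limma adjusted p = 0.00101, 0.00375 and 0.0107). With a GC trend subtracted XRCC1 was at -0.42 (adjusted p = 0.0981), and its call was also lost without either untreated control array (adjusted p = 0.0549 and 0.0674). GADD45G, a stress gene linked to DNA demethylation, rose by 1.54 ± 0.27 in the control clones and by 1.23 ± 0.27 in the knockdown clones (SE, limma adjusted p = 0.00594 and 0.0351). The uracil glycosylase gene UNG fell by 0.80 in the knockdown clones (limma adjusted p = 0.0314) and measured -0.04 in the control clones. In the knockdown clones, where GADD45G and UNG were 2 of 15 against 11.8% of all tested probes, the GADD45G call was lost in 12 of 22 settings (adjusted p up to 0.337) and the UNG call in 14 (adjusted p up to 0.296), that of UNG without any 1 of the 8 arrays and that of GADD45G without any but the treated TET1-KD1 array. With the arrays of the first slide only, GADD45G and UNG were not called in the knockdown clones (limma adjusted p = 0.0607 and 0.059). Treated knockdown clones were higher than treated controls in FEN1 by 1.11 and in APEX1 by 0.63, and lower in UNG by 1.01 (limma adjusted p = 0.00788, 0.0491 and 0.0126), 3 of 15 against 18.8%. Each of these calls was lost with the methods' t-test, where the adjusted p was 0.156, 0.185 and 0.171 in the same order. The APEX1 call was lost in 12 of 20 settings, without any 1 of the control or the treated knockdown arrays included, and was at 0.26 on the spike-in signals (adjusted p = 0.317). The UNG call was lost without the treated array of CONT1 or of TET1-KD1 (adjusted p = 0.056 and 0.0598).

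Of the 6 readers, 3 were called in the control clones and all 3 fell with 5-aza-dC, against 41.8% of all tested probes in either direction and 22.6% lower. Among them, WDR76 fell by 1.33 and the methyl-CpG binding domain gene MBD3 by 1.28 (limma adjusted p = 0.00641 and 0.00123). WDR76 and MBD3 were higher in treated knockdown clones than in treated controls, by 1.05 and 1.01 (limma adjusted p = 0.0303 and 0.00768). Both calls were lost with the methods' t-test (adjusted p = 0.287 and 0.146). The WDR76 call between treated clones was lost in 10 of 20 settings, without any 1 of the control arrays or the treated TET1-KD1 array included, and was at 0.60 on the spike-in signals (adjusted p = 0.154), where its fall in the control clones was -0.73 (adjusted p = 0.0666). The MBD3 difference between treated clones was 0.47 with a GC trend subtracted (adjusted p = 0.0717). These comparisons share the treated control arrays. Of the 6, limma called 0 with 5-aza-dC in the knockdown clones, against 11.8% of all tested probes, with 1 at an unadjusted p below 0.05. The difference in response passed the test for MBD3, 1 of the 6 against 5.58% of all tested probes. With the clone as a block this call was lost (limma adjusted p = 0.0566).

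**Figure D5:**
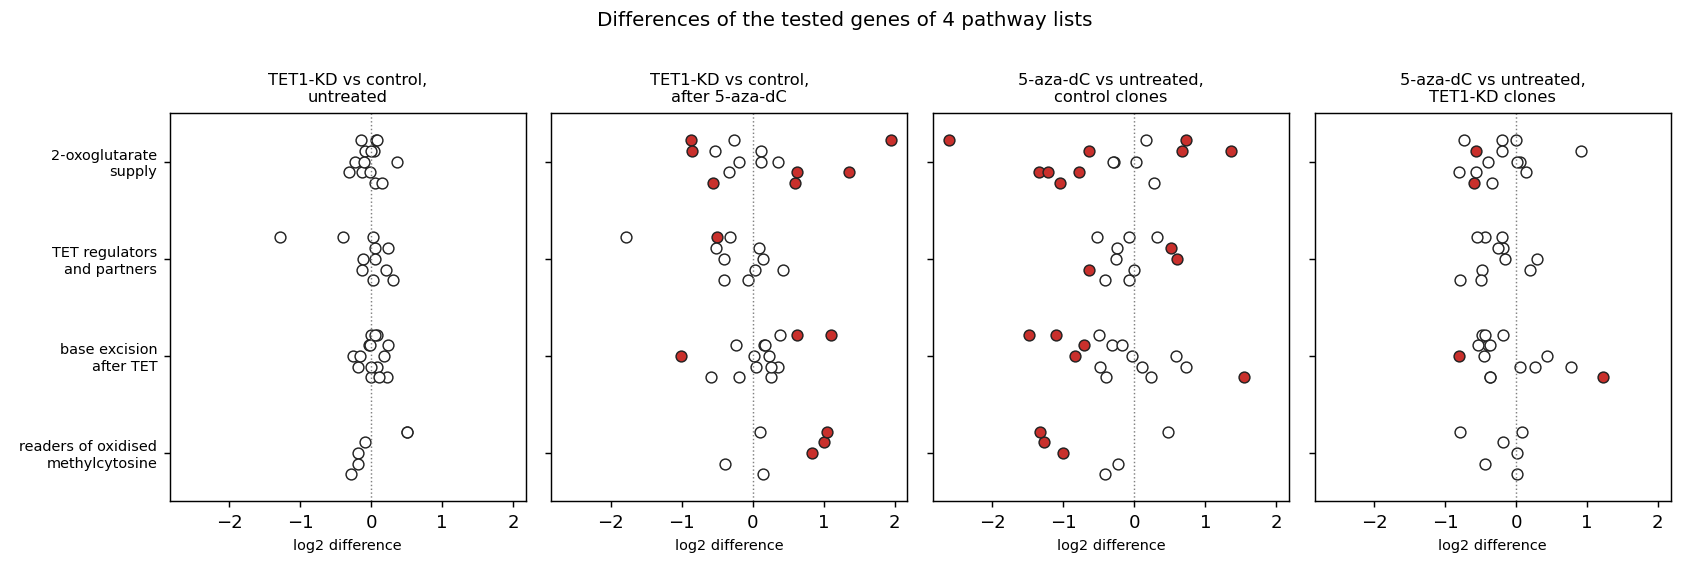
Log2 differences (x axis) of the tested genes of 4 pathway lists (y axis; vertical offsets within a list only separate the points) in 4 comparisons; each point is 1 gene, red when called at a limma adjusted p below 0.05. The first panel holds no red point, and in the third IDH3A lies farthest from 0 at -2.61.

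The 5 genes whose signals followed TET1 probe 1 most closely over the 8 arrays were SH2D6 (r = 0.988), HR (r = 0.985), CLDN15 (r = 0.982), EPHB2 (r = 0.981) and PTGER2 (r = 0.978). In EPHB2, an Eph receptor of the intestinal crypt, the untreated knockdown clones differed from control by -0.86, and in HR, a nuclear receptor corepressor of the hair follicle, by -1.30. For TET2 probe 4 the 5 closest were COL17A1 (r = 0.990), ANTXR2 (r = 0.981), CASP8 (r = 0.979), FLNC (r = 0.976) and PDZD11 (r = 0.973). These are the highest of the correlations with all tested probes that carry a gene name, over arrays of 4 clones, and are given as a description without a test.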

How the data were processed

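The labels and methods describe one-color SurePrint G3 arrays. The authors deposited spot intensity values from Agilent Feature Extraction 10.7.3.1, background-subtracted but not normalized between arrays, and a value table equal to the processed intensity within 0.497%. Here intensities were scaled to each array's 75th percentile, set to at least 1 and put on the log2 scale. Spots marked non-uniform, as outliers or by hand were left out (229 to 329 per array; 0 were saturated), and spots of a probe were averaged. The 8 arrays were fitted together in limma 3.58.1 (R 4.3.3) with 4 condition means and Benjamini-Hochberg adjustment over 27286 probes. Intervals use limma's moderated spread. A signal is "at least N-fold" different where all arrays of 1 condition were below background, with each such array at the higher of its own signal and its lowest signal above background. Deviations from the condition means correlated between the arrays of a clone at 0.198 (control) and 0.476 (knockdown). Clones of a kind correlated at 0.979 to 0.9894. Members, lists and named genes (all member probes, up to 4 called genes with the largest change per list, and the 5 closest patterns) were chosen with earlier results of these data known. Some listed genes that this rule takes are not reported here by name. The analysis was tested on simulated data. Alternatives are in the closing section. Plots used matplotlib 3.10.9. The number of arrays limits the precision.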

Additional observations from a re-analysis of the deposited data

Results flagged for a closer look

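The limma test of the difference in response to 5-aza-dC, knockdown minus control clones, passed its threshold for 3 genes of the pathway lists. These were 2 of the 14 genes of the 2-oxoglutarate list and 1 of the 6 readers, against 5.58% of all tested probes. The 11 tested regulators and partners and the 15 base excision genes had 0 calls. Whether 3 genes exceed the share of all probes was not tested. The log2 signals of IDH3A before and after treatment were 10.97 and 8.25 for CONT1, 11.12 and 8.63 for CONT2, 11.11 and 10.52 for TET1-KD1, then 11.12 and 10.26 for TET1-KD2, a difference in response of 1.88 (limma adjusted p = 0.0185). OGDH gave 5.97 and 4.58, 6.10 and 4.78, 6.05 and 6.0, and 5.76 and 6.10 in the same order, a difference of 1.49 (limma adjusted p = 0.0269). MBD3 gave 11.04 and 9.84, 11.10 and 9.74, 11.01 and 10.72, and 10.96 and 10.89, a difference of 1.10 (limma adjusted p = 0.0364). With the clone as a block the MBD3 call was lost (limma adjusted p = 0.0566), while those of IDH3A and OGDH were kept (0.0377 and 0.0466). The treated control arrays are alone on the second slide, so that slide and condition cannot be told apart in these values. The OGDH and MBD3 calls were each lost without any 1 of the 8 arrays, and the IDH3A call without either untreated array of the control clones, either untreated array of the knockdown clones, or the treated array of TET1-KD1 (adjusted p 0.0511 to 0.0878). On the spike-in signals the difference was 1.27 for IDH3A (limma adjusted p = 0.0734), and with a GC trend subtracted it was 0.41 for MBD3 (limma adjusted p = 0.264). With normexp background correction it was 0.45 for OGDH (limma adjusted p = 0.194).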

How the results depend on the processing

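The calls of the 12 member probes kept their sign in all 62 values that alternatives gave for called probes, and 44 of these stayed called. In the control clones with 5-aza-dC, 2 probes were called in the main setting, 4 with quantile normalization or with only the arrays compared, 1 with no filter on dim probes or with the arrays on the spike-in signals, 5 with the replicate block (clone), 5 with that block and a GC trend subtracted, and 1 to 3 with 1 array left out. Between treated kinds of clone 1 was called, 2 with quantile normalization or with probes above background on all 8 arrays, and 0 without the filter, with the methods' t-test, with only the arrays compared or with a GC trend subtracted, and 0 to 3 with 1 array left out. Between treated kinds of clone the 1 call with normexp background correction, and with the arrays on the spike-in signals, was TET1 probe 3, lower in the knockdown clones. In both settings TET2 probe 2 was not called (limma adjusted p = 0.083 and 0.0867). The other comparisons had 0 calls in every setting that was run. The replicate number as a block, which only shares a number between kinds of clone, left 0 and 1 calls. The replicate block (clone) changed no member call in the knockdown clones or in the difference in response, but among the named genes of the lists it lost IDH3B in the knockdown clones (adjusted p = 0.0535), MGEA5 in the control clones (0.058) and the MBD3 difference in response (0.0566). Probes not called in the main setting were called in 21 of 1171 values, and 59 changed sign uncalled. Named genes of the lists were still called in 453 of 659 values, with 0 sign changes. Over all probes the calls were 4 (0 to 34), 5121 (4 to 5912), 11401 (4162 to 13746), 3218 (0 to 4026) and 1522 (47 to 1750) for untreated kinds of clone, treated kinds of clone, control response, knockdown response and difference in response. The methods' t-test gave the lowest counts for treated kinds of clone, control response and knockdown response. With 1 array left out, the lone array of a condition was taken to vary like the others. TET3, TET2 probe 1 and part of TET1 probe 2, TET2 probe 3 and CXXC4 were limited by background.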

Other observations

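The RefSeq promoter windows of the members (300 bases, GRCh38.p14, 250 before to 50 after a start site) were searched for the dinucleotide CG, which reads the same on both strands. TET3 had 45 and 33 in its 2 windows and TET2 had 13 and 35, whereas TET1 had 10, 6 and 11 in 3 windows and IDH2 had 6. OGT had 26, TDG 22, IDH1 17 and 20 and CXXC4 17, against a median of 14 over 35116 windows. As many CG as the first TET3 window were held by 3.48% of all windows, and as many as the IDH2 window by 66.3%. These counts describe the sequence alone, since methylation was not measured in the files used here. The windows end 50 bases after a start site, so CG farther downstream were not counted. Low counts therefore do not show that a gene, TET1 included, lacks a CpG island. The windows are listed by gene and not by the transcript that a probe was designed on.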
